A study of Mus musculus with 12 samples.

Results

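Motile cilia are the beating cell projections that move fluid over an epithelium, and their shaft, the axoneme, is built from proteins largely dedicated to it. Levels of 60 motile cilia and axoneme genes were followed in the mouse hippocampus. They are every gene whose symbol begins with Dnah, Cfap, Tekt, Rsph or Drc and a number, together with Foxj1 and Ccdc153, out of 52636 genes in the deposited tables. Of the 60, 40 averaged at least 1 TPM, a length-corrected transcript abundance, over all libraries and 20 did not, while 18499 of all 52636 genes did. The family was singled out because Foxj1, Tekt1 and Ccdc153 were called in the authors' deposited table for males. Male differences between low and high extinction are therefore described here and support nothing. The test is made in the female mice, whose values the choice of genes did not use, although earlier results of both sexes were known when it was made.

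The 12 libraries come from wild-type C57BL6/J mice aged 18 weeks, 1 mouse per library. They form 4 groups of 3: males with low extinction, males with high extinction, females with low extinction and females with high extinction. Extinction is the fading of a learned fear once the feared cue or place is met without harm, and the study set mice that extinguish poorly against mice that extinguish well. The sources used here do not say how the mice were scored or how long before dissection. All differences are low minus high extinction, taken within a sex because the tables of the 2 sexes were made separately. TPM corrects for transcript length and sets each library to the same total, so levels can be compared between genes, and the number of reads in each library is unknown. The authors' deposited tables give a mean normalized count per gene over the libraries of a sex, which over the 40 genes at 1 TPM or more ran from 37.5 in males and 40.8 in females for Tekt2 to 2901 in males and 3015 in females for Cfap36.

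In a motile cilium, rows of dynein arms sit on the outer microtubule doublets and walk along the neighbouring doublet, which bends the shaft. Radial spokes carry signals from the central apparatus to the arms, the nexin-dynein regulatory complex links neighbouring doublets, and tektins and other inner proteins stiffen the doublets from within. Foxj1 is the transcription factor that switches on this gene programme, together with factors of the RFX family. In the brain, motile cilia are carried by ependymal cells, which line the ventricles beside the hippocampus, and by cells of the choroid plexus, so a dissected hippocampus holds as many of these cells as stay attached to it. Neurons and astrocytes carry a primary cilium, which lacks most of these parts. In bulk tissue, fewer cells of a type and less RNA per cell cannot be told apart.

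The 10 hippocampal neuron markers summed to between 3008 and 4016 TPM. They include Snap25, Rbfox3, Slc17a7 and Gad1, and no other tissue was compared, so the sum cannot by itself tell hippocampus from other brain tissue. The number of genes at 1 TPM or more per library ran from 18170 to 19062. Ribosomal RNA-derived transcripts held between 6.88% (replicate 3 of the low-extinction females) and 19.4% (replicate 1 of the high-extinction males) of a library's TPM. The markers Foxj1, Tekt1 and Ccdc153 were above 0 in all 12 libraries, with 0.720 TPM of Tekt1 as the lowest value. Replicate numbers only name a mouse and pair none across groups.

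Most of these genes were weakly expressed. The summed TPM of all 60 lay between 273 in replicate 2 of the low-extinction males and 410 in replicate 3 of the low-extinction females, and Cfap36 alone averaged 85.9 TPM. Only 8 genes averaged 10 TPM or more, namely Cfap36, Cfap20, Rsph3b, Cfap97, Rsph9, Rsph3a, Cfap74 and Cfap44. In 7 of those 8 the highest library stood less than 1.6 times above the lowest, and the exception was Cfap44 at 4.10 times. Among the 32 genes averaging 1 to 10 TPM, 17 had a highest library more than 3 times above the lowest. Just above the 1 TPM line stood Tekt2 at 1.17, Dnah7a at 1.26 and Dnah6 at 1.47 TPM, and just below it Dnah10 at 0.887, Cfap73 at 0.677 and Tekt4 at 0.659 TPM. At 0 TPM in 1 or more libraries were 7 genes, and the other 53 were above 0 in all 12.

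Foxj1 averaged 8.29 TPM, and 10 of the other genes averaged more. Of the dynein heavy chains, the motor subunits of the arms, the outer arm chain Dnah9 stood highest at 6.59 TPM and its outer arm partner Dnah5 at 1.57 TPM, with Dnah11 at 0.613 TPM. Inner arm chains reached at most 2.60 TPM, in Dnah2. Of the 16 genes with the Dnah prefix 7 reached 1 TPM, against 19 of 26 Cfap, 6 of 8 Rsph, 3 of 5 Tekt and 3 of 3 Drc genes. By TPM several radial spoke genes stood higher than the heavy chains: Rsph3b averaged 18.6, the spoke head subunit Rsph9 17.5 and Rsph3a 15.6 TPM, while the spoke head subunits Rsph1 and Rsph4a averaged 6.84 and 3.53 TPM. The levels of Rsph3a and Rsph3b, near-identical copies, are uncertain. Their mean normalized counts in males were 158 and 123, against 354 for Rsph9, whose longest transcript is shorter (966 against 2225 and 2243 bases). Rsph6a, known mainly from sperm in mouse, averaged 0.134 TPM. Of the nexin-dynein regulatory complex, Drc3 averaged 8.69, Drc1 7.40 and Drc7 4.53 TPM. The tektins ran from Tekt5 at 6.31 TPM through Tekt1 at 2.89, Tekt2 at 1.17 and Tekt4 at 0.659 TPM to Tekt3 at 0.109 TPM. Tekt5, known from sperm in mouse, thus stood above Tekt1, and their 12 libraries did overlap, with Tekt1 reaching 5.03 TPM and Tekt5 going down to 3.75 TPM. Of the central apparatus genes Cfap74 averaged 11.0, Cfap69 9.23 and Cfap65 5.05 TPM.

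**Figure D1:**
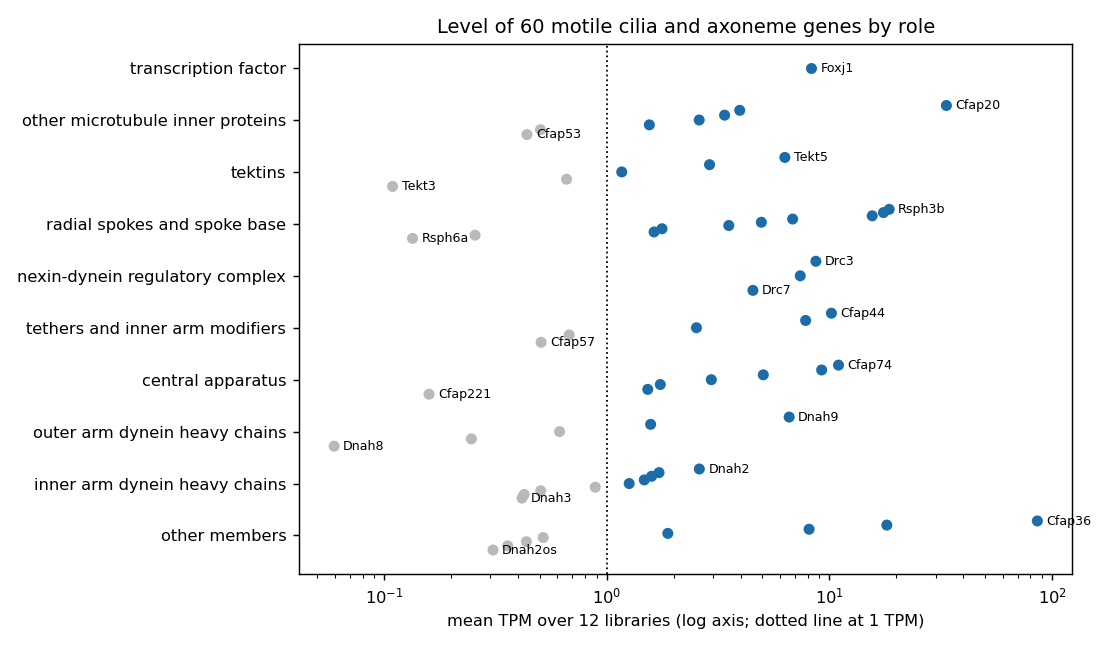
Mean TPM over 12 libraries (log axis) of each of the 60 genes, grouped by the part of the axoneme it builds, with the line at 1 TPM. Cfap36 at 85.9 TPM stands highest, and 7 of the 16 Dnah genes reach the line.

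The 60 genes lie on 17 chromosomes, 10 of them on chromosome 11. Foxj1 spans chr11:116330704-116335399 on the minus strand, Tekt1 chr11:72344722-72362442 on the minus strand and Ccdc153 chr9:44240676-44247306 on the plus strand in GRCm38, per the GENCODE M21 annotation. Dynein heavy chain transcripts are long, with a median longest transcript of 13696 bases over the Dnah genes other than Dnah2os. The median was 2454.5 bases over the 44 genes without the Dnah prefix. Of the 60 genes, 36 overlap another annotated gene, 32 of them one on the opposite strand. Dnah2os, which the symbol rule takes in, is the opposite-strand partner of Dnah2 and averaged 0.308 TPM. The sources used here do not say whether reads were counted by strand, so reads of such partners may not have been kept apart. Near-identical copies, Dnah7a with Dnah7b and Dnah7c and Rsph3a with Rsph3b, are uncertain for the same kind of reason. Dnah7a lay under 0.3 TPM in 5 libraries and over 1.3 TPM in the other 7, with both kinds in every group, and Dnah7b and Dnah7c showed no such split.

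RFX factors bind the X-box, of which GTTGCC is a half-site. Promoter windows from 250 bases before to 50 bases after a transcription start, taken from RefSeq on GRCm38.p6, were found for 48 of the 60 genes, 55 windows in all. GTTGCC, read on both strands, was in 19 of the 55 windows (34.5%, 17 genes), against 12.5% of the 32851 windows of all genes. For comparison, GTAAACA, a forkhead motif, was in 4 of 55 windows (7.27%, against 3.65% of all), and TATAAA in 2 of 55 (3.64%, against 13.6% of all). These shares describe the letters and not binding. Windows are printed for 4 genes with large male differences (Tekt1, Ccdc153, Dnah10 and Cfap52), chosen after their values were seen, and for Cfap36, the steady gene with the highest level. Capitals mark GTTGCC or its reverse GGCAAC, and for Tekt1 the one of its windows that holds it is given.
Tekt1, chr11:72361833-72362132, minus strand: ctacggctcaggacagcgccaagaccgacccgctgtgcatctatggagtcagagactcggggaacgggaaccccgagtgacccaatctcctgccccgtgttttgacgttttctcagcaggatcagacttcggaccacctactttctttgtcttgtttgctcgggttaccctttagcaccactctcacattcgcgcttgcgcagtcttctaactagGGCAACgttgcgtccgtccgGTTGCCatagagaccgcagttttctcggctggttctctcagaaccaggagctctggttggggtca
Ccdc153, chr9:44240427-44240726, plus strand: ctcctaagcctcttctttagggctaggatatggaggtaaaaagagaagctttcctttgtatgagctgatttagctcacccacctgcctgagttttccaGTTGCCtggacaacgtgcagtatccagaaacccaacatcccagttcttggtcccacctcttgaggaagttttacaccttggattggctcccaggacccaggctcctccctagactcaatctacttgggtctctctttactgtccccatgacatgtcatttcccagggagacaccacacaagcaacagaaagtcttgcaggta
Dnah10, chr5:124724835-124725134, plus strand: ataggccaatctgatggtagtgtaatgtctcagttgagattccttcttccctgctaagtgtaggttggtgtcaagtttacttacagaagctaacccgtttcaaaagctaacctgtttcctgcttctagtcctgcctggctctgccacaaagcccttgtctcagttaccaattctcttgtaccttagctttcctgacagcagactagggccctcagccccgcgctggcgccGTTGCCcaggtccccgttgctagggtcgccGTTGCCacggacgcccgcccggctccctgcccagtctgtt
Cfap52, chr11:67965593-67965892, minus strand: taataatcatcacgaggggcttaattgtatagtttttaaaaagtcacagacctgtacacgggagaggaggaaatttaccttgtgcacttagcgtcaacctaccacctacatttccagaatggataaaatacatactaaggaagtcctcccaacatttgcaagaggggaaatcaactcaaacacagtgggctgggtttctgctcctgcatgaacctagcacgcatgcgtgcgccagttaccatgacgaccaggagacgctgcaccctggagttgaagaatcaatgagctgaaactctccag
Cfap36, chr11:29247223-29247522, minus strand: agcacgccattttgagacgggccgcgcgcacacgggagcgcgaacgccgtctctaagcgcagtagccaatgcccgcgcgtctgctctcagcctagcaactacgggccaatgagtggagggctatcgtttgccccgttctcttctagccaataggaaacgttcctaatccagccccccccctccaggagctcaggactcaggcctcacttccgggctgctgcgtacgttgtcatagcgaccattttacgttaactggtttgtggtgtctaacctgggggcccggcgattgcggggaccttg
In Tekt1 the half-sites begin 35 and 15 bases before the start, and in Dnah10 they begin 20 bases before it and at base 11 of the transcript. In Ccdc153 the half-site begins 152 bases before the start. The Cfap52 and Cfap36 windows do not hold these letters.

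In males, 52 of the 60 genes were lower and 8 higher at low extinction by the authors' deposited fold changes. Of the 60, 24 differed by more than 1.5-fold, and the share of all genes past that size is not given here. The authors' deposited table called 7 of the 56 genes that have an adjusted p in it, all 7 lower at low extinction and 0 higher. Over all genes with an adjusted p in the authors' deposited table, 0.389% were called lower and 0.115% higher, and since these calls led to the choice of the family nothing is read from the contrast. The 7 were Foxj1, Ccdc153, Tekt1, Cfap52, Cfap61, Dnah10 and Dnah11. The log2 change farthest from 0 in the authors' deposited table for males, -1.99 (SE 0.89), was that of Drc7, which was not called.

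Foxj1 had 7.23, 4.01 and 6.37 TPM in the low-extinction males, against 10.6, 13.7 and 11.2 TPM in the high-extinction males. The low-extinction libraries all lay below the high-extinction ones, and the authors' deposited table gives a log2 change of -0.96 (SE 0.18). Tekt1, a tektin of the doublet wall, had 1.42, 0.720 and 2.17 TPM in the low-extinction males, against 3.97, 5.03 and 4.59 TPM in the high-extinction males. Here too the groups were apart, and the log2 change in the authors' deposited table was -1.49 (SE 0.28). Ccdc153, a coiled-coil gene used as an ependymal cell marker, had 5.65, 2.95 and 2.26 TPM in the low-extinction males, against 8.41, 11.4 and 12.0 TPM in the high-extinction males. The groups did not overlap, and the log2 change was -1.58 (SE 0.30) in the authors' deposited table.

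Cfap52, an inner protein of the doublets, had 1.51, 0.144 and 1.88 TPM in the low-extinction males, against 3.52, 4.82 and 1.99 TPM in the high-extinction males. The groups only just failed to overlap, and replicate 2 of the low-extinction males was far below the rest (authors' deposited log2 change -1.55, SE 0.40). Cfap61, at the base of a radial spoke, had 2.16, 0.229 and 1.88 TPM in the low-extinction males, against 2.58, 2.60 and 2.28 TPM in the high-extinction males. Its groups were close except in that same replicate 2 (authors' deposited log2 change -0.95, SE 0.24). The inner arm chain Dnah10 averaged 0.405 ± 0.284 TPM in the low-extinction males and 0.972 ± 0.267 TPM in the high-extinction males (SD, n = 3 each). The outer arm chain Dnah11 averaged 0.230 ± 0.129 TPM in the low-extinction males and 1.09 ± 0.511 TPM in the high-extinction males (SD, n = 3 each). These group means were near or under 1 TPM, with single male libraries up to 1.27 TPM for Dnah10 and 1.68 TPM for Dnah11. Neither gene's male groups overlapped.

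Of the 40 genes at 1 TPM or more, 17 had all low-extinction males below all high-extinction males and 0 the reverse, against 7.32% and 4.19% of all genes at that level. By the authors' deposited fold changes 35 of the 40 were lower, against 52.1% of all genes at that level, with a median log2 change of -0.31, against -0.01 over all. The difference was not shared by all. Cfap36 averaged 81.2 ± 3.30 TPM in the low-extinction males and 84.1 ± 11.4 TPM in the high-extinction males (SD, n = 3 each). Rsph3b averaged 18.0 ± 0.782 TPM in the low-extinction males and 18.2 ± 1.85 TPM in the high-extinction males (SD, n = 3 each). Cfap97 averaged 17.1 ± 0.868 TPM in the low-extinction males and 16.2 ± 1.47 TPM in the high-extinction males (SD, n = 3 each). Cfap36, Rsph3b and Cfap97 lay level between the groups, while the spoke head gene Rsph1 averaged 4.30 ± 1.37 TPM in the low-extinction males and 7.85 ± 0.623 TPM in the high-extinction males (SD, n = 3 each). Of the other genes averaging 10 TPM or more, Cfap20, Rsph3a and Cfap74 had overlapping male groups. Rsph9 (mean 16.2 TPM at low against 18.9 TPM at high extinction) and Cfap44 (8.74 against 12.0 TPM) were lower without overlap. The medians and counts by part also take in the 20 genes below 1 TPM, and no matching share over all genes is given for them. By part, the median authors' deposited log2 change in males was -0.72 over 7 doublet inner proteins other than tektins (7 lower), -0.54 over 5 tether and inner arm modifier genes (4 lower) and -0.50 over 10 radial spoke genes (8 lower). It was -0.44 over 7 central apparatus genes (7 lower), -0.40 over 5 outer arm chains (4 lower), -0.34 over 9 inner arm chains (9 lower) and -0.32 over the 8 genes placed in no part (6 lower). It was -0.22 over the 5 tektins (3 lower). It was nearest to 0, at -0.21, over the 3 genes placed in the nexin-dynein regulatory complex (3 lower). These medians hide wide ranges, from -1.49 to 0.26 over the tektins and from -1.99 (Drc7) to -0.06 over the complex. Ccdc153, at -1.58, was counted among the 8 genes placed in no part, and the medians depend on such placements.

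**Figure D2:**
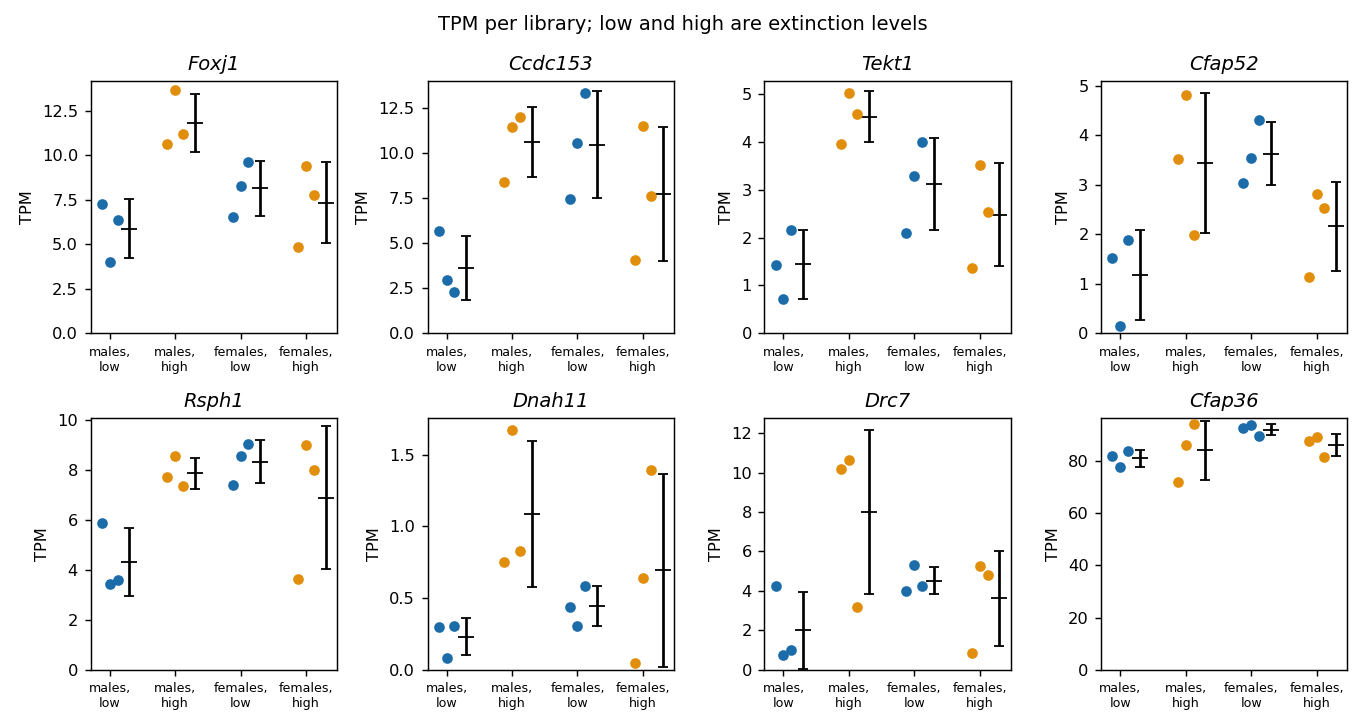
TPM in each library for 8 genes, with low-extinction mice (blue) left of high-extinction mice (orange) in each sex and black bars for the mean ± SD of 3 mice. In Foxj1, Tekt1 and Ccdc153 the male groups are apart and the female groups overlap, and Cfap36 stays between 71.8 and 94.3 TPM.

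In females no gene of the family passed the test. The authors' deposited table called 0 of the 46 family genes with an adjusted p, against 0.569% of all genes called higher and 0.288% called lower. The authors' deposited table gave an unadjusted p below 0.05 to 3 of the 60 (Dnah3, Cfap52 and Cfap161), all of them higher, against 2.48% of all genes. With limma on log2(TPM + 1), adjusted over all 18499 genes, 0 of the 40 tested were called, and 2 genes of all (0.0108%). The same fit in males also called 0 of the 40, and 0 of all genes, where the authors' deposited table called 101. Its male adjusted p was 0.671 for Foxj1, 0.549 for Tekt1 and 0.560 for Ccdc153. The lack of limma calls in females therefore cannot set the sexes apart. At an unadjusted limma p below 0.05 there were 4 of 40, all higher, against 7.87% of all genes higher, a share close to the background. All low-extinction females lay above all high-extinction females for 5 of 40 genes and below for 0, against 14.2% and 1.98% of all genes.

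Foxj1 had 6.51, 8.27 and 9.62 TPM in the low-extinction females, against 4.86, 9.38 and 7.76 TPM in the high-extinction females. The groups overlapped, and the limma log2 change was 0.16 with a 95% interval from -0.40 to 0.71 (adjusted p = 0.845). Tekt1 had 2.09, 3.30 and 4.00 TPM in the low-extinction females, against 1.37, 3.52 and 2.55 TPM in the high-extinction females. Its groups overlapped as well, and the limma log2 change was 0.27, from -0.40 to 0.93 (adjusted p = 0.780). Ccdc153 had 7.43, 10.6 and 13.4 TPM in the low-extinction females, against 4.03, 11.5 and 7.61 TPM in the high-extinction females, again with overlap. Its limma log2 change was 0.46, from -0.37 to 1.29 (adjusted p = 0.707). The interval of each of the 3 genes includes 0. For males the authors' deposited changes were given above, which are another measure. In the authors' deposited table for females the log2 changes were 0.05 (SE 0.19) for Foxj1, 0.25 (SE 0.32) for Tekt1 and 0.45 (SE 0.27) for Ccdc153. The limma log2 changes in males were -0.92 for Foxj1, -1.22 for Tekt1 and -1.38 for Ccdc153. The difference between the sexes was not tested.

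The 5 genes whose female groups did not overlap were Cfap36, Cfap74, Cfap44, Cfap52 and Cfap70. Cfap44, part of the tether that holds an inner dynein to the doublet, had 12.0, 12.6 and 15.9 TPM in the low-extinction females, against 3.88, 7.78 and 8.14 TPM in the high-extinction females. It showed the highest limma log2 change of the tested genes of the family, 0.98 with a 95% interval from 0.38 to 1.58 (adjusted p = 0.480). In the authors' deposited table, which rests on counts, its female log2 change was 0.31, from -0.29 to 0.91. Cfap52 had 3.04, 3.54 and 4.30 TPM in the low-extinction females, against 1.13, 2.81 and 2.53 TPM in the high-extinction females, with a limma log2 change of 0.59 (adjusted p = 0.564). Cfap70, placed in the central apparatus, had 1.73, 1.60 and 2.12 TPM in the low-extinction females, against 0.879, 1.02 and 1.15 TPM in the high-extinction females, with a limma log2 change of 0.48 (adjusted p = 0.495). None of these passed the adjusted threshold.

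The direction in females was nonetheless mostly upward. By the authors' deposited fold changes 34 of the 40 genes at 1 TPM or more were higher at low extinction, against 45.9% of all genes at that level, with a median log2 change of 0.19, against -0.01 over all. On log2(TPM + 1) the median was 0.18, against 0.06 over all genes. Without replicate 1 of the high-extinction females it was 0.03, against 0.06 over all genes, so that median rests on this library. By the authors' deposited fold changes, 46 of the 60 genes were lower in males and higher in females at low extinction. More than 1.5-fold apart were 24 of 60 in males and 4 of 60 in females. These counts over 60 take in the 20 genes below 1 TPM, and the matching shares over all genes are not given here. The male calls also led to the choice of the family, so nothing is read from these counts.

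**Figure D3:**
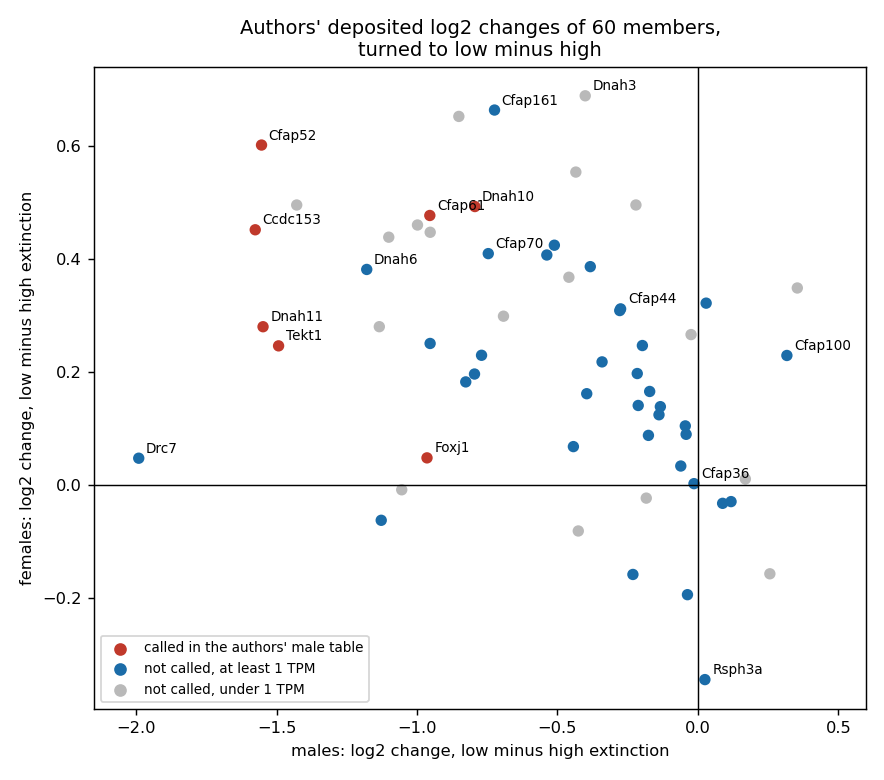
Log2 change (low minus high extinction) from the authors' deposited tables, males across and females up, 1 point per gene of the family, coloured by whether the male table called it (red) and whether it reached 1 TPM. Most points, 46 of 60, lie at upper left, lower in males and higher in females. The share of all genes lying there is not given, and the male calls led to the choice of the family. The spread is wider across males than up the female axis.

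Single libraries stood apart for the whole family. Replicate 1 of the high-extinction females was the lowest of the 6 female libraries for 30 of the 40 genes (75.0%), against 19.6% of all tested genes. Replicate 2 of the low-extinction males was the lowest male library for 23 of 40 (57.5%), against 16.1% of all genes. At the other end, replicate 3 of the low-extinction females was the highest female library for 23 of 40 (57.5%, all genes 36.4%) and replicate 3 of the high-extinction males the highest male library for 18 of 40 (45.0%, all genes 33.4%). Within groups, the SD of log2(TPM + 1) had a median of 0.29 over the 40 genes and 0.15 over all tested genes. For genes under 10 TPM the medians were 0.33 and 0.20.

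**Figure D4:**
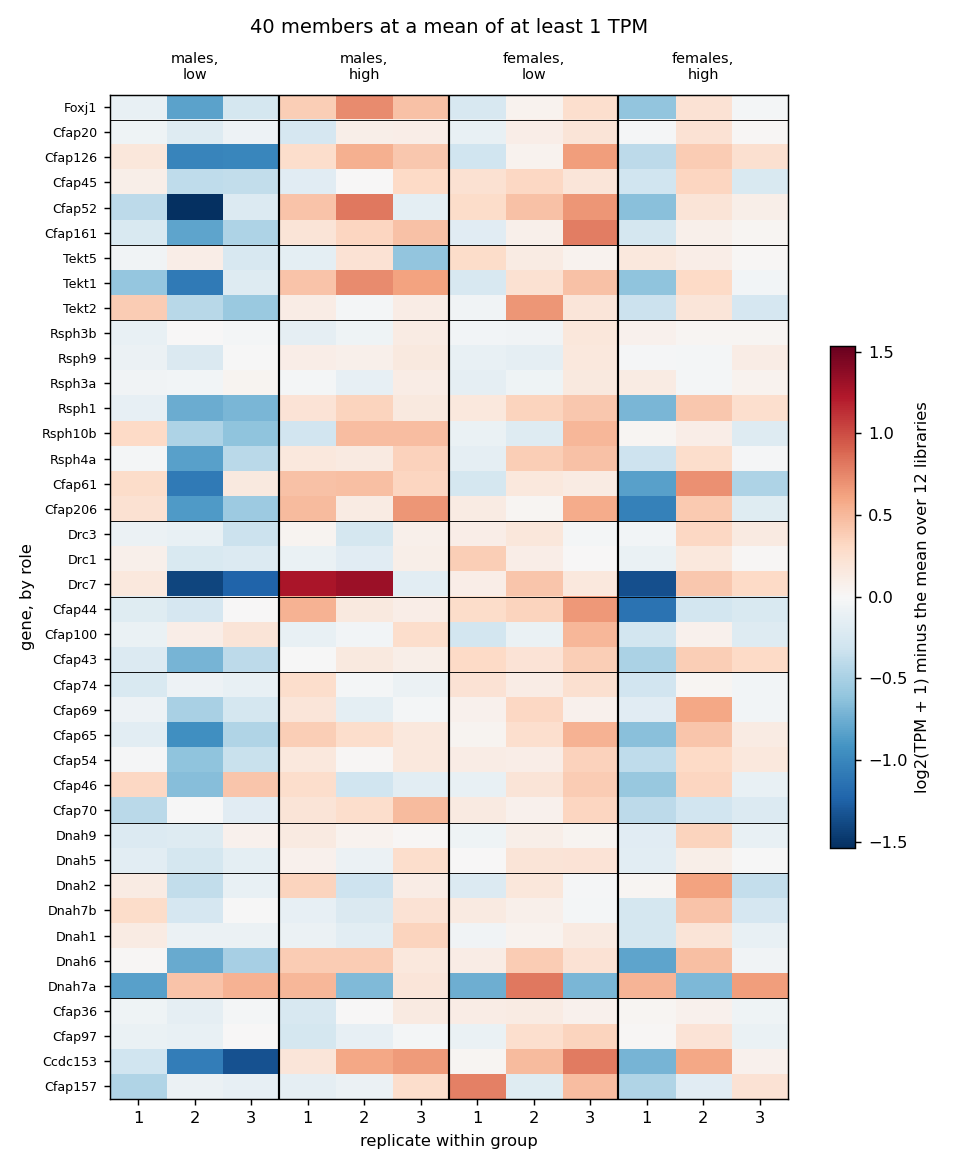
Log2(TPM + 1) of the 40 genes at 1 TPM or more in each library, minus the gene's mean over 12 libraries, with genes in rows and libraries in columns. The columns of replicate 2 of the low-extinction males and replicate 1 of the high-extinction females are lowest, with medians of -0.38 and -0.30 over the 40 genes.

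Markers of other cells at the ventricle wall also moved between libraries. Choroid plexus markers (20 of 20 found, none at 0) summed to between 166 and 1384 TPM in the low-extinction males and between 554 and 4496 TPM in the high-extinction males. In females they summed to between 281 and 1642 TPM at low and between 159 and 1759 TPM at high extinction, so the groups overlapped in both sexes. The authors' deposited tables had all 20 lower in males with 0 called (10 at an unadjusted p below 0.05). In females 17 of the 20 were lower and 3 higher, with a median log2 change of -0.19, and 1 was called, Slc13a4, higher. Both libraries named as lowest for the cilia genes had the lowest choroid plexus sum of their sex, 166 TPM in replicate 2 of the low-extinction males and 159 TPM in replicate 1 of the high-extinction females. The relation did not hold for every library: replicate 3 of the high-extinction males had a choroid plexus sum of 554 TPM and Foxj1 at 11.2 TPM, and replicate 3 of the low-extinction females had a sum of 281 TPM and Foxj1 at 9.62 TPM, the highest female value. Drc7, of the nexin-dynein regulatory complex, ordered the 6 male libraries as the choroid plexus sum did. It had 4.23, 0.759 and 1.00 TPM in the low-extinction males against 10.2, 10.6 and 3.18 TPM in the high-extinction males. In females the orders differed. Among the low-extinction females, Drc7 was at 4.25 TPM in replicate 3 (sum 281 TPM) and at 4.00 TPM in replicate 1 (sum 1086 TPM).

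Meningeal fibroblast markers (15 of 15 found) summed to between 87.0 and 156 TPM in the low-extinction males and between 174 and 244 TPM in the high-extinction males. In females the sums were between 196 and 249 TPM at low and between 152 and 157 TPM at high extinction, so the groups were apart in both sexes and in opposite directions. The authors' deposited tables called 1 of the 15 meningeal genes with an adjusted p in males (Col3a1, lower) and 7 of the 12 with one in females, all higher. The part of choroid plexus and meningeal cells in the cilia gene differences was not tested. Markers of astrocytes (10 tested) and of hippocampal neurons (10 tested) had 0 calls in the authors' deposited tables in either sex (at an unadjusted p below 0.05, 3 and 1 in males and 0 and 2 in females), and thalamus and habenula markers (5 tested) had 1, Prkcd, higher at low extinction in females.

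**Figure D5:**
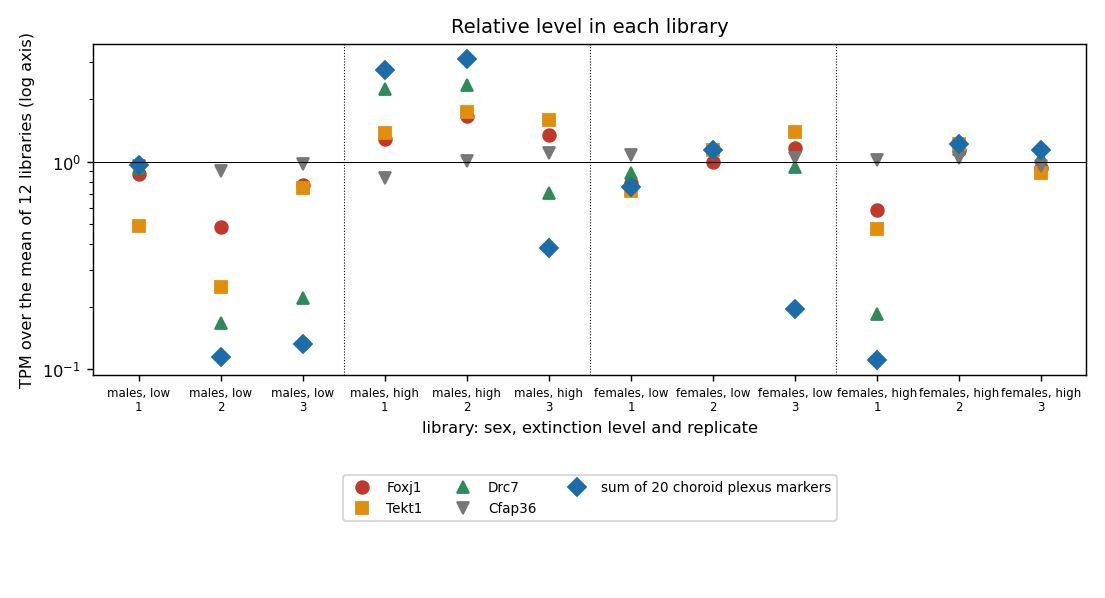
TPM divided by its own mean over 12 libraries (log axis) for Foxj1, Tekt1, Drc7, Cfap36 and the sum of 20 choroid plexus markers, by library. Cfap36 stays near 1, and Drc7 orders the male libraries, but not the female ones, as the choroid plexus sum does. Foxj1 and Tekt1 are above 1 in replicate 3 of the high-extinction males and of the low-extinction females, where the choroid plexus sum is low.

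Other genes of the same cells and structures were followed through lists. Ependymal markers outside the symbol rule (23 of 24 found, 21 at 1 TPM or more) summed to between 125 and 165 TPM in the low-extinction males. In the high-extinction males the sums were between 169 and 213 TPM, with no overlap. Much of the sum is Pltp (mean 59.6 TPM) and Tppp3 (33.7 TPM), and the lack of overlap leans on Pltp. Pltp, not called, had 53.1, 43.6 and 54.3 TPM in the low-extinction males, against 64.7, 73.5 and 58.1 TPM in the high-extinction males. In the authors' deposited table for males 20 of the 21 were lower and 2 were called, the dynein light chain gene Dynlrb2 and the adenylate kinase gene Ak7. In females these markers summed to between 171 and 212 TPM at low and between 130 and 177 TPM at high extinction, with overlap. There the authors' deposited table gave 19 of 21 higher and called 1, Tm4sf1, a membrane protein gene, at 1.39-fold. Only 13 of these markers had an adjusted p in females, against 22 in males, so the numbers of calls are not directly comparable. Other axoneme genes (38 of 41 found, 30 at 1 TPM or more) had 26 of 30 lower in males in the authors' deposited table, with Iqub and Spag16 called, and 19 of 30 higher in females with 0 called. Spag16, of the central apparatus, had 0.822, 0.176 and 0.494 TPM in the low-extinction males, against 2.11, 1.83 and 1.08 TPM in the high-extinction males, without overlap.

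Among genes that help to build cilia without being part of the motile shaft, none was called in the authors' deposited tables or by limma. Dynein arm assembly factors, which preassemble the arms in the cytoplasm, had 0 of 12 called in either of the authors' deposited tables, with 7 lower in males and 8 lower in females and 1 in males and 0 in females at an unadjusted p below 0.05. Regulators of ciliogenesis had 0 of 15 called in either of the authors' deposited tables, with 2 in males and 1 in females below 0.05 unadjusted. Among them the RFX factor gene Rfx3 averaged 37.8 TPM, and its male groups overlapped, having 38.4, 41.6 and 34.3 TPM in the low-extinction males against 35.5, 40.4 and 40.9 TPM in the high-extinction males. Genes of intraflagellar transport and the primary cilium had 0 of 59 called in either sex (3 in males and 6 in females below 0.05 unadjusted), with 32 of 59 higher in males and 33 of 59 higher in females by the authors' deposited fold changes. Over these 59 the median log2 change in the authors' deposited tables was 0.01 in males and 0.02 in females, against -0.31 and 0.19 over the 40 motile cilia genes. Male calls led to the choice of the family, so nothing is read from the male contrast. The lists also differ in level: the 59 summed to between 1258 and 1519 TPM per library, against 273 to 410 TPM over the 60 genes of the family.

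Dnah14, another dynein heavy chain gene, differed between the 2 deposited measures. It had 1.09, 1.29 and 0.987 TPM in the low-extinction males, against 0.103, 0.0807 and 0.859 TPM in the high-extinction males, without overlap and higher in the low-extinction group. In the authors' deposited table, its male log2 change was -0.18 (SE 0.34). This gene was chosen after its values were seen. Dnah7a, with its split TPM levels, had a log2 change in the authors' deposited tables of -0.13 (SE 0.34) in males and 0.14 in females.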

How the data were processed

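Per the labels' protocols, libraries of the 12 mice were made from polyadenylated RNA. The authors' tools, per the submitters' processing notes, were HTSeq, DESeq2, StringTie 1.3.3b, Bowtie2 and TopHat2, on mm10 and GRCm38.p5, and their roles are not stated. The authors deposited 1 TPM table per sex. Per the file headers, the authors also deposited 1 DESeq2 table per sex with a mean normalized count (on a scale of its own), a log2 fold change and its standard error, a test statistic (a score), a p-value and an adjusted p-value. TPM keeps no depth, so the depth of each library is unknown, the deposited mean counts being averages over a sex, and no model of counts was fitted. The sources used here do not name the direction of the deposited fold change. Its correlation across genes with the low minus high TPM change was -0.59 in males and -0.45 in females. Of the genes called, 101 of 101 in males and 133 of 134 in females carried the sign opposite to that change, so it was multiplied by -1 to read low minus high.

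Genes averaging 1 TPM or more entered the test on log2(TPM + 1), a scale on which changes of weakly expressed genes look smaller. It used limma 3.58.1 in R 4.3.3 (mean-variance trend, two-sided, Benjamini-Hochberg over 18499 genes, threshold 0.05), within the 6 libraries of a sex. The male fit gives values and counts as a description only. The step was tested on simulated data. "Called" in the text means an adjusted p below 0.05, and "no overlap" means that all 3 libraries of a group lie beyond all 3 of the other. P-values set the difference between groups against the spread between mice within a group. The members and the 11 gene lists were chosen with earlier results of these data known. The rule for named genes took Foxj1, Ccdc153, the tektins, members called in either of the authors' tables, the 3 most abundant per prefix, the 5 largest changes per direction in females and the 3 nearest to 1 TPM on either side. Members with values given outside that rule were named after their values were seen, to show an axoneme part, a count or a contrast. Gene positions are from GENCODE M21, promoter windows from RefSeq on GRCm38.p6. Alternatives were other pseudocounts, filters, scalings and variance models, a joint fit and leaving out each library. Figures used Python 3.11.15 with matplotlib 3.10.9.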

Additional observations from a re-analysis of the deposited data

Results flagged for a closer look

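In 3 genes of the family the low- and high-extinction libraries did not overlap in either sex and lay in opposite directions, lower at low extinction in males and higher in females. The log2(TPM + 1) change in females was 0.98 for Cfap44, 0.59 for Cfap52 and 0.48 for Cfap70, and the difference between the sexes was not tested. These 3 were found by looking over all 40 tested genes, and in females no limma adjusted p of theirs was below 0.05. The share of all genes apart in both sexes in this way is not given here. Within single sexes, 7.32% of all genes were apart and lower in males, and 14.2% apart and higher in females. The male calls led to the choice of the family, so nothing is read from the count of 3.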

How the results depend on the processing

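The count of family genes called by limma in females was 0 under every alternative and without any single library. The male fit, given as a description, had the same count. Genes called over the whole table in females numbered 2, against 4 with a pseudocount of 0.1, 1 with no filter, 0 with all 12 libraries in the fit, and between 4 and 10 without single libraries. In males they numbered 0, against 1 with all 12 libraries and between 2 and 4 without single libraries. The median log2 change of the tested genes lay between 0.08 and 0.24 in females and between -0.40 and -0.23 in males over the 10 other alternatives, and without single libraries between 0.03 and 0.33 in females and between -0.39 and -0.21 in males. Quantile normalization and median centring brought the female median of all genes to 0.00 and -0.01 and that of the family to 0.08 and 0.10. Several named genes changed sign. In females Dnah9 went to -0.025 without ribosomal RNA-derived transcripts, -0.086 with quantile normalization and -0.066 with median centring. Tekt5 gave -0.033 and -0.012 with the last 2 scalings, and Dnah7b -0.023 with quantile normalization. Without single libraries, the female log2 change ran from -0.077 to 0.34 for Foxj1, -0.075 to 0.079 for Cfap20, -0.090 to 0.023 for Rsph3b, -0.15 to 0.0010 for Rsph9, -0.15 to 0.032 for Drc3, -0.093 to 0.17 for Dnah9, -0.0028 to 0.11 for Tekt5, -0.13 to 0.75 for Drc7, -0.34 to 0.15 for Dnah2, -0.11 to 0.66 for Cfap61 and -0.029 to 0.33 for Dnah7b. In males the log2 change crossed 0 without 1 or more single libraries for Cfap36, Rsph3a, Rsph3b, Drc1, Tekt5, Dnah7a and Dnah7b, and with other settings for Rsph3a, Rsph3b (quantile normalization and median centring) and Dnah7a (a pseudocount of 0.1). The cause of these changes was not tested. No paired analysis was possible because the labels give no replicate numbers that tie mice across groups. TPM gives no reads per library, so counting error could not be set apart from the spread between the 3 mice of a group.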
